A study of Mus musculus with 30 samples.

Results

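The carnitine shuttle carries long-chain fatty acids into mitochondria, and 5 of its genes were described here in mouse quadriceps muscle: Slc22a5, Cpt1b, Slc25a20, Cpt2 and Crat. They were chosen by function, with earlier results of these data known, and found in the deposited array table by their Entrez gene number. Each had 1 entry, so they make up 5 of the 16475 entries tested. The study asked how diet-induced obesity and insulin resistance bear on the muscle transcriptome.

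RNA came from male mice of a strain that the sample labels spell C56BL/6J and the series' design text C57BL/6J, with 1 mouse on each of 30 arrays. The HF day 56 group (10 arrays) had eaten a high fat diet for 56 days and was 20 weeks old. The LF day 56 group (10 arrays) had stayed on the low fat diet for the same time and was also 20 weeks old. The LF day 0 group (10 arrays) was killed at the end of the low fat run-in that all mice had received, at 12 weeks of age. Day 56 mice therefore differ from day 0 mice in age as well as in time on the diets, and HF day 56 differs from LF day 0 in diet, age and time together. Whole quadriceps was used, so a level is an average over fibres and the other cells of the tissue, and fewer cells of a type cannot be told apart from less RNA per cell.

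Fatty acids that enter a muscle fibre are made into acyl-CoA, which cannot cross the inner mitochondrial membrane. Carnitine, which muscle takes up from blood, accepts the acyl group on the outer membrane, the acylcarnitine is exchanged for free carnitine across the inner membrane, and the acyl group is handed back to CoA in the matrix, where it is oxidised. The first transfer is blocked by malonyl-CoA and is regarded as the controlling step, and several genes of the route are known targets of the fatty acid receptors of the PPAR family.

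The 4 genes measured above background all had their highest mean level in HF day 56 muscle, but no gene of the 5 passed the test against LF day 56 muscle. Slc25a20 and Cpt2 rose in HF day 56 against LF day 0 muscle, by 1.31-fold and 1.30-fold. Cpt1b and Crat lay in the same direction without passing, and Slc22a5 was not above background. Levels are the authors' GCRMA intensities, on a linear scale, and differences are on the log2 scale. Differences were tested with limma in 1 fit of all 30 arrays, two-sided, with Benjamini-Hochberg adjustment over the 16475 entries and a threshold of 0.05, and SE is that of the fit.

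The arrays fell into classes that the groups do not define, and these touch the results below. The spike-in probe sets divided the arrays by the ratio of 5′ to 3′ signal into 9 arrays of high and 21 arrays of low ratio, with 3 and 7 in every group, and 3811 entries (23.1%) differed between these classes. The level of S100a8, a neutrophil gene, was over 100 on 6 of 10 HF day 56, 4 of 10 LF day 56 and 7 of 10 LF day 0 arrays. The skeletal muscle list had 12 of 13 markers measured, and its mean log2 level stayed between 13.88 and 14.01 over all 30 arrays.

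Slc22a5, the plasma membrane importer of carnitine, gave intensities of 8.5 at the lowest, 9.7 at the median and 12.2 at the highest on HF day 56 arrays. The LF day 56 arrays gave 8.0, 9.15 and 13.5, and the LF day 0 arrays 8.2, 9.4 and 13.7. The 3 ranges lay almost on top of one another, and none of the 30 values reached 20, the intensity below which entries were taken as undetected. The HF day 56 minus LF day 56 difference was 0.05 ± 0.10 (SE, limma adjusted p = 0.998), with a 95% interval of -0.15 to 0.26. These values are near background, so they set no limit on how the transcript itself varied.

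Cpt1b, the muscle form of carnitine palmitoyltransferase on the outer membrane, ranged from 1034 over a median of 1281 to 1780 on HF day 56 arrays. On LF day 56 arrays it ranged from 976 over 1175 to 1432, and on LF day 0 arrays from 850 over 1052 to 1345. The order of the 3 group medians was HF day 56, LF day 56, LF day 0, but the groups overlapped, and 3 of 10 HF day 56 arrays lay above the highest LF day 56 array. Mean log2 levels were 10.38 ± 0.26 in HF day 56, 10.20 ± 0.18 in LF day 56 and 10.07 ± 0.20 in LF day 0 muscle (SD, n = 10 each).

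Against LF day 56 muscle, Cpt1b in HF day 56 muscle differed by 0.18 ± 0.09 (SE, limma adjusted p = 0.991), and 8 of 10 arrays of the HF group exceeded the LF day 56 mean. The LF day 56 minus LF day 0 difference was 0.13 ± 0.09 (adjusted p = 0.705). The HF day 56 minus LF day 0 difference was 0.31 ± 0.09 (adjusted p = 0.111), a 1.24-fold difference with a 95% interval of 1.08 to 1.42, and 9 of 10 HF arrays lay above the LF day 0 mean. With the array class of the 5′ to 3′ ratio as a block, the same difference of 0.31 passed the test (limma adjusted p = 0.00844). It also passed with the ratio itself as a covariate (adjusted p = 0.0446) and when HF day 56 replicate 3, the lowest array of its group, was left out (0.35, adjusted p = 0.0476). It was 0.26 and did not pass with class, slow fibre and adipocyte terms together (adjusted p = 0.189), nor at 0.27 with a neutrophil term as well (adjusted p = 0.182). Without the arrays on which S100a8 exceeded 100 it was 0.13 (adjusted p = 0.87).

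Cpt1b levels moved with the array class. The 9 arrays of high 5′ to 3′ ratio lay 0.33 ± 0.06 above the 21 of low ratio on the log2 scale (limma with group and class, adjusted p = 0.00012). Within the classes the HF day 56 minus LF day 56 difference was 0.24 in the 9 arrays and 0.15 in the 21 (limma adjusted p = 0.993 and 0.989). The HF day 56 minus LF day 0 difference was 0.31 in both and passed in neither (adjusted p = 0.517 in the 9 arrays and 0.113 in the 21).

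Slc25a20, the carnitine-acylcarnitine translocase of the inner membrane, ranged from 822 over a median of 1002 to 1234 on HF day 56 arrays. It ranged from 675 over 821 to 963 on LF day 56 arrays and from 655 over 743 to 894 on LF day 0 arrays. All 10 HF day 56 arrays lay above the mean of either LF group, and 7 of 10 lay above the highest array of each, so the groups were shifted but overlapped. Mean log2 levels were 9.95 ± 0.18 in HF day 56, 9.68 ± 0.16 in LF day 56 and 9.56 ± 0.13 in LF day 0 muscle (SD, n = 10 each).

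The Slc25a20 level in HF day 56 muscle was 0.27 ± 0.07 above that in LF day 56 muscle (SE), which had an unadjusted limma p of 0.000792, the 36th smallest of all entries, and an adjusted p of 0.362. As a fold this was 1.20, with a 95% interval of 1.09 to 1.33. LF day 56 muscle differed from LF day 0 muscle by 0.13 ± 0.07 (adjusted p = 0.567). HF day 56 muscle differed from LF day 0 muscle by 0.39 ± 0.07 (limma adjusted p = 0.00159), a 1.31-fold rise with a 95% interval of 1.19 to 1.45.

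Cpt2, the inner membrane carnitine palmitoyltransferase that returns the acyl group to CoA, ranged from 896 over a median of 1080 to 1370 on HF day 56 arrays. Its range was 755 over 900 to 1023 on LF day 56 arrays and 745 over 843 to 1007 on LF day 0 arrays. As for Slc25a20, 10 of 10 HF arrays exceeded the mean of either LF group and 7 of 10 exceeded the highest array of each. Mean log2 levels were 10.11 ± 0.21 in HF day 56, 9.81 ± 0.15 in LF day 56 and 9.73 ± 0.14 in LF day 0 muscle (SD, n = 10 each).

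Between the diets at day 56, Cpt2 differed by 0.30 ± 0.07 (SE), with an unadjusted limma p of 0.000297, the 25th smallest of all entries, and an adjusted p of 0.196. The fold was 1.23 with a 95% interval of 1.11 to 1.37. The LF day 56 minus LF day 0 difference was 0.08 ± 0.07 (adjusted p = 0.809). Against LF day 0, Cpt2 in HF day 56 muscle rose by 0.38 ± 0.07 (limma adjusted p = 0.0034), which is 1.30-fold with a 95% interval of 1.17 to 1.45.

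The sequences before the starts of these 2 genes are shown because theirs were the 2 levels that passed a test. They come from RefSeq on build GRCm38.p6, in a table that matched 3 of the 5 genes (Slc25a20, Cpt2 and Slc22a5) and holds 32851 promoters. Each is read on the gene's own strand, from 250 bases before the annotated start to 30 bases from it. Slc25a20 is on the plus strand at chr9:108661886-108662165 and Cpt2 on the minus strand at chr4:107923560-107923839, and capitals mark the match described after them.
Slc25a20: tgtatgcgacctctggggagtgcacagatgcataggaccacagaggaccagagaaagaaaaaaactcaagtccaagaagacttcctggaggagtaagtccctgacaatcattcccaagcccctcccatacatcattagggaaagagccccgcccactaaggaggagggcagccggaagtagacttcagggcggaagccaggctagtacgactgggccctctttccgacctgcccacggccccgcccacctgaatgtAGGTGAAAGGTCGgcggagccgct
Cpt2: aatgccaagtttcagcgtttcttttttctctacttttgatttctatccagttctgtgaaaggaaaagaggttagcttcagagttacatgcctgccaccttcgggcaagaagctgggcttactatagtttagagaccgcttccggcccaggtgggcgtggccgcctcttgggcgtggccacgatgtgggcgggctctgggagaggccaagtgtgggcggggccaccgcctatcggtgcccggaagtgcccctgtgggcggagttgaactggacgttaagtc

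The windows of 300 bases in the table, 250 before and 50 from the start, were searched on both strands for 3 motifs. The direct repeat bound by PPAR receptors, which is AGGTCA 2 times in the same direction with 1 free base between, matched with up to 2 mismatches allowed 1 time in Slc25a20, at bases 7 to 19 counted from the start base as 1, where it had 2 mismatches. It had 0 matches in the Cpt2 and Slc22a5 windows and at least 1 match in 1268 of all 32851 promoters (3.86%). The single repeat unit AGGTCA, which lies within the first motif and also within the next, had 0 exact matches in the 3 genes and was held by 5340 promoters (16.3%). The ERR element TCAAGGTCA had 0 exact matches in the 3 genes and was held by 139 promoters (0.423%). A match is a description of letters, and its absence says only that those letters are not in this window. The GC content was 58.0% for Slc25a20 and 57.3% for Cpt2, against a median of 52.7% over all promoters.

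Crat, the matrix carnitine acetyltransferase that turns acetyl-CoA and short-chain acyl-CoA into acylcarnitines, ranged from 186 over a median of 242 to 282 on HF day 56 arrays. It ranged from 179 over 217 to 257 on LF day 56 arrays and from 175 over 208 to 258 on LF day 0 arrays. The groups overlapped over most of their ranges, with 4 of 10 HF day 56 arrays above the highest LF day 56 array. Mean log2 levels were 7.90 ± 0.19 in HF day 56, 7.76 ± 0.19 in LF day 56 and 7.73 ± 0.18 in LF day 0 muscle (SD, n = 10 each).

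Crat in HF day 56 muscle differed from LF day 56 muscle by 0.14 ± 0.08 (SE, limma adjusted p = 0.998) and from LF day 0 muscle by 0.17 ± 0.08 (adjusted p = 0.433). The LF day 56 minus LF day 0 difference was 0.03 ± 0.08 (adjusted p = 0.947). Within every group the Crat levels of the 2 array classes did not overlap, though in HF day 56 muscle they nearly touched. In HF day 56 muscle the arrays of high ratio lay between 8.05 and 8.14 and those of low ratio between 7.54 and 8.04 on the log2 scale. In LF day 56 muscle the ranges were 7.97 to 8.01 and 7.48 to 7.81, and in LF day 0 muscle 7.90 to 8.01 and 7.45 to 7.80. The class difference of 0.30 ± 0.05 (limma with group and class, adjusted p = 2.88e-05) was larger than any of the 3 group differences of this gene. Of all entries, 23.1% differed by class, and the share whose classes did not overlap was not counted.

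**Figure D1:**
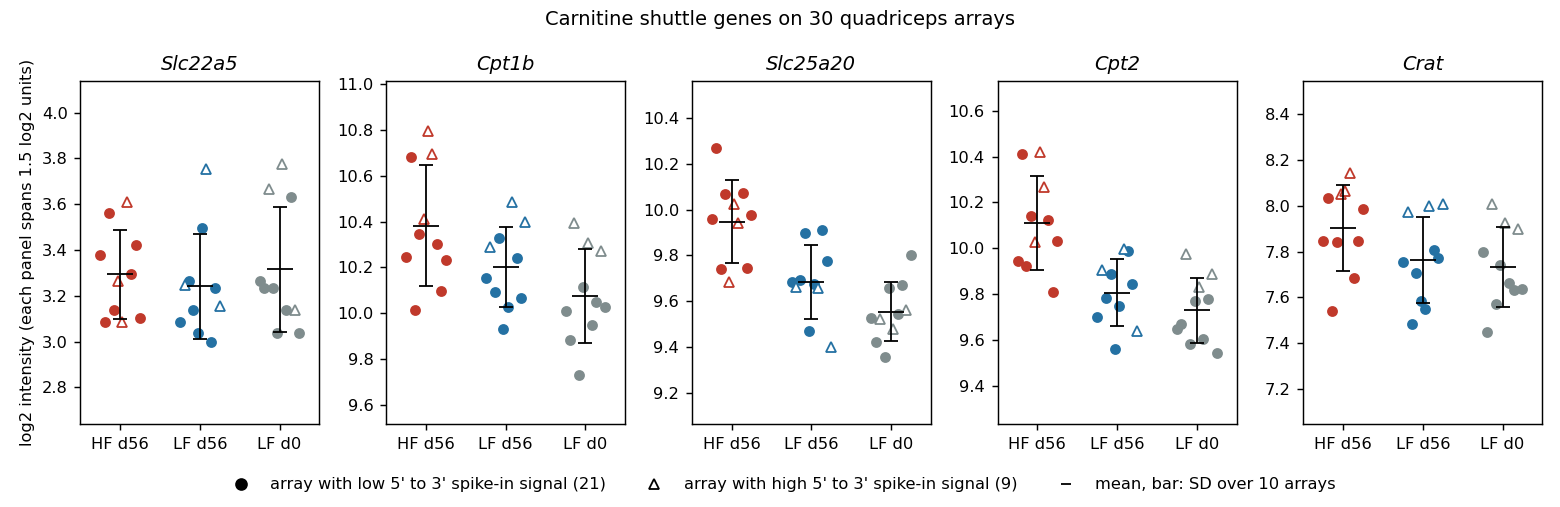
Intensity of Slc22a5, Cpt1b, Slc25a20, Cpt2 and Crat on each array, on the log2 scale, by group from left to right (HF d56, LF d56, LF d0, n = 10 each), with the 2 symbols marking arrays of high and low 5′ to 3′ ratio and bars giving mean and SD. Slc25a20 and Cpt2 are shifted up in HF d56 with overlap, Crat separates by array class, and the 3 groups of Slc22a5 cover the same range.

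Across the 5 genes, the HF day 56 minus LF day 56 difference was above 0 for 5, against 51.5% of all entries. It passed the test for 0, where 0.0243% of all entries passed. Slc22a5, near background, is counted among the 5 here and in the medians below. At an unadjusted p under 0.05, Cpt2 and Slc25a20 were higher, 2 of 5 genes against 2.99% of all entries. The median difference of the 5 was 0.18, against 0.00 over all entries. Here and below, shares over all entries are given as a description. The genes and the lists were chosen with earlier results of these data known.

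In LF day 56 against LF day 0 muscle, 4 of the 5 were higher and 1, Slc22a5, lower, where 50.4% of all entries were higher. Of the 5, 0 passed, against 0.85% of all entries. At an unadjusted p under 0.05 the count was also 0 of 5, against 10.1% of all entries. The median difference was 0.08 for the 5 and 0.00 for all entries.

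In HF day 56 against LF day 0 muscle, 2 of 5 passed, both higher, against 0.783% of all entries that passed as higher and 1.55% of the 6844 entries with 5 or more arrays above 20. At an unadjusted p under 0.05, 4 of 5 were higher, against 5.31% of all entries. The median difference was 0.31 for the 5 and 0.00 for all entries. The 3 comparisons use the same 3 groups in pairs, so each group enters 2 of them and their results are not independent. In the order of levels of Cpt1b, Slc25a20, Cpt2 and Crat, no pair of neighbouring groups differed past the threshold.

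**Figure D2:**
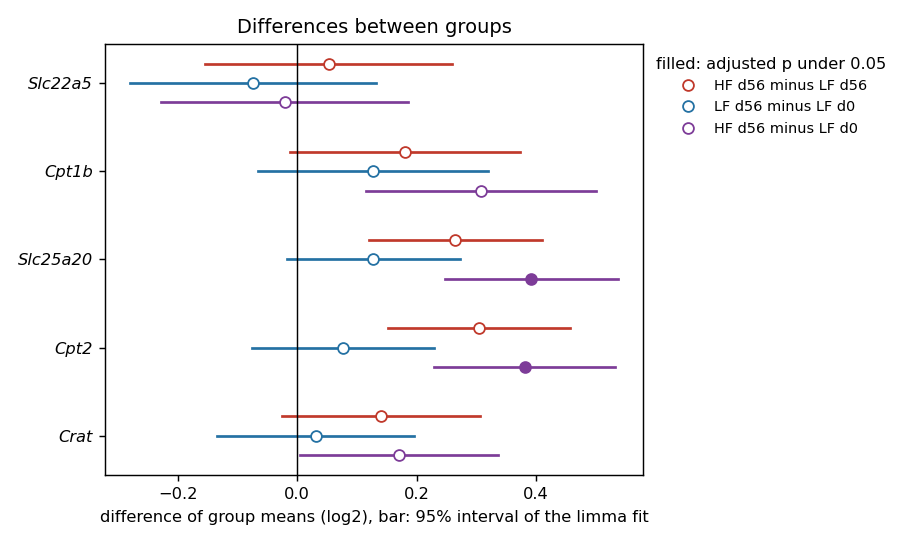
Difference of each of the 5 genes in the 3 comparisons on the log2 scale, with bars for the 95% interval of the fit and filled points for an adjusted p under 0.05. Filled points are those of Slc25a20 (0.39) and Cpt2 (0.38) in HF d56 minus LF d0.

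Both calls depended on which subset of arrays was used, though both passed with any single array left out. The 13 arrays with S100a8 at 100 or below were 4 HF day 56, 6 LF day 56 and 3 LF day 0 arrays. Among them the HF day 56 minus LF day 0 difference of Slc25a20 was 0.17 ± 0.10 (SE, limma adjusted p = 0.756). That of Cpt2 was 0.22 ± 0.11 (adjusted p = 0.693). Of all entries, 6 passed this comparison in the 13 arrays, against 262 in the main fit. The 17 arrays above 100 were 6 HF day 56, 4 LF day 56 and 7 LF day 0 arrays. There the difference was 0.53 ± 0.08 for Slc25a20 (SE, limma adjusted p = 0.0012). For Cpt2 it was 0.49 ± 0.09 (adjusted p = 0.0111), and 112 of all entries passed. The change in size between the 2 subsets was not tested.

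The array classes were unevenly spread over these subsets. At 100 or below, 1 of 4 HF day 56, 3 of 6 LF day 56 and 0 of 3 LF day 0 arrays were of high ratio, and above 100 the counts were 2 of 6, 0 of 4 and 3 of 7. Class as a block in these subsets was a setting chosen after seeing the data. In it, HF day 56 minus LF day 0 at 100 or below was 0.18 for both Slc25a20 (limma adjusted p = 0.668) and Cpt2 (adjusted p = 0.686). For Cpt1b this difference was 0.05 (adjusted p = 0.928). Above 100 it was 0.52 for Slc25a20 (adjusted p = 0.00115), 0.51 for Cpt2 (adjusted p = 0.000781) and 0.47 for Cpt1b (adjusted p = 0.00395). With the neutrophil score, the mean log2 level of the measured markers, as a covariate over all 30 arrays, the differences were 0.41 (adjusted p = 0.000331) and 0.40 (adjusted p = 0.000872).

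The HF day 56 arrays themselves differed along this line. Slc25a20 lay between 9.94 and 10.27 on the 6 HF day 56 arrays with S100a8 over 100 and between 9.68 and 9.98 on the other 4. On LF day 56 arrays it lay between 9.69 and 9.91 on the 4 over 100 and between 9.40 and 9.69 on the other 6. On LF day 0 arrays the ranges were 9.35 to 9.80 (7 arrays) and 9.53 to 9.67 (3 arrays). The slow fibre score, the mean log2 level of the measured slow fibre markers, differed between these subsets too. In HF day 56 muscle the score was 7.0 to 8.1 on the arrays over 100 and 4.2 to 6.7 on the others. In LF day 56 muscle it was 7.5 to 8.6 and 4.3 to 7.9, and in LF day 0 muscle 5.2 to 8.2 and 4.6 to 7.6. Which of the 2 marker sets Slc25a20 went with across these subsets was not tested.

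Between the diets at day 56, no gene of the 5 passed in either subset. Cpt2 differed by 0.19 without the arrays over 100 and by 0.34 with those alone, Slc25a20 by 0.20 and 0.24, and Crat by 0.05 and 0.24. For Cpt1b, whose level moved with array class, the differences were -0.02 and 0.33, but with class as a block they were 0.06 and 0.20. Within class, Cpt1b on the arrays at 100 or below averaged 10.12 in HF day 56 and 10.04 in LF day 56 muscle for low ratio (3 arrays each), and 10.41 (1 array) and 10.39 (3 arrays) for high ratio.

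Of 10 neutrophil markers 9 were measured, 9 of 9 higher in HF day 56 than in LF day 56 muscle, 9 of 9 lower in LF day 56 than in LF day 0 and 9 of 9 lower in HF day 56 than in LF day 0, with 0 past the test in any comparison. Their summed intensity ran from 41.4 to 13518 in HF day 56, 42.0 to 2618 in LF day 56 and 44.3 to 10356 in LF day 0 muscle, and Elane and Mmp8 were at or below 20 on all LF day 56 arrays. The part of these cells in the differences of Slc25a20 and Cpt2 was not tested beyond these fits.

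Most adipocyte markers were higher at day 56 than at day 0 on either diet. Of 10 listed 7 were measured, and 6 of 7 were higher in HF day 56 than in LF day 0 muscle. Of these Adipoq, Lep, Cidec and Retn passed, where 0.783% of all entries passed as higher. Thrsp was lower, at -0.40 (limma adjusted p = 0.157). In LF day 56 against LF day 0 muscle, where no shuttle gene passed, 6 of 7 were also higher and 0 passed. Their summed intensity was 775 to 3470 in HF day 56, 891 to 2217 in LF day 56 and 693 to 1498 in LF day 0 muscle, with Cidea at or below 20 on all HF day 56 arrays, Lep and Slc7a10 on all LF day 56 arrays, and Lep, Slc7a10 and Cidea on all LF day 0 arrays. With the adipocyte score as a covariate, HF day 56 minus LF day 0 was 0.36 for Slc25a20 (limma adjusted p = 0.0999) and 0.41 for Cpt2 (adjusted p = 0.0624). The sizes stayed near 0.39 and 0.38 while neither passed, and the SE of both was 0.10 with the score and 0.07 without it. Beside group, the slope on the score was 0.04 ± 0.07 for Slc25a20 and -0.03 ± 0.07 for Cpt2 (SE, limma adjusted p = 0.993 for both). The part of fat cells in these differences was not tested. Between the diets at day 56, 5 of 7 adipocyte markers were higher and 0 passed.

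Levels of slow fibre markers varied widely between arrays. Of 10 slow fibre markers 9 were measured, with 3 of 9 higher in HF day 56 than in LF day 56 muscle, 8 of 9 higher in LF day 56 than in LF day 0, 7 of 9 higher in HF day 56 than in LF day 0, and 0 past the test. Their summed intensity was 377 to 5893 in HF day 56, 460 to 8127 in LF day 56 and 472 to 6009 in LF day 0 muscle, and Myh7b was at or below 20 on all arrays. With the slow fibre score as a covariate, HF day 56 minus LF day 56 was 0.27 for Slc25a20 (limma adjusted p = 0.0849) and 0.31 for Cpt2 (adjusted p = 0.0754). In the same fit HF day 56 minus LF day 0 was 0.37 for Slc25a20 (adjusted p = 0.000629) and 0.36 for Cpt2 (adjusted p = 0.00278).

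Within the 21 arrays of low ratio, HF day 56 minus LF day 0 was 0.41 for Slc25a20 (limma adjusted p = 0.0235) and 0.40 for Cpt2 (adjusted p = 0.0144). Within the 9 arrays of high ratio, with 3 a group, it was 0.36 (adjusted p = 0.465) and 0.34 (adjusted p = 0.527). HF day 56 minus LF day 56 was 0.25 and 0.31 for Slc25a20, and 0.27 and 0.39 for Cpt2, in the 21 and the 9 arrays. The class itself shifted Cpt2 by 0.16 ± 0.06 (limma with group and class, adjusted p = 0.049) and Slc25a20 by -0.10 ± 0.06 (adjusted p = 0.277), high over low ratio.

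**Figure D3:**
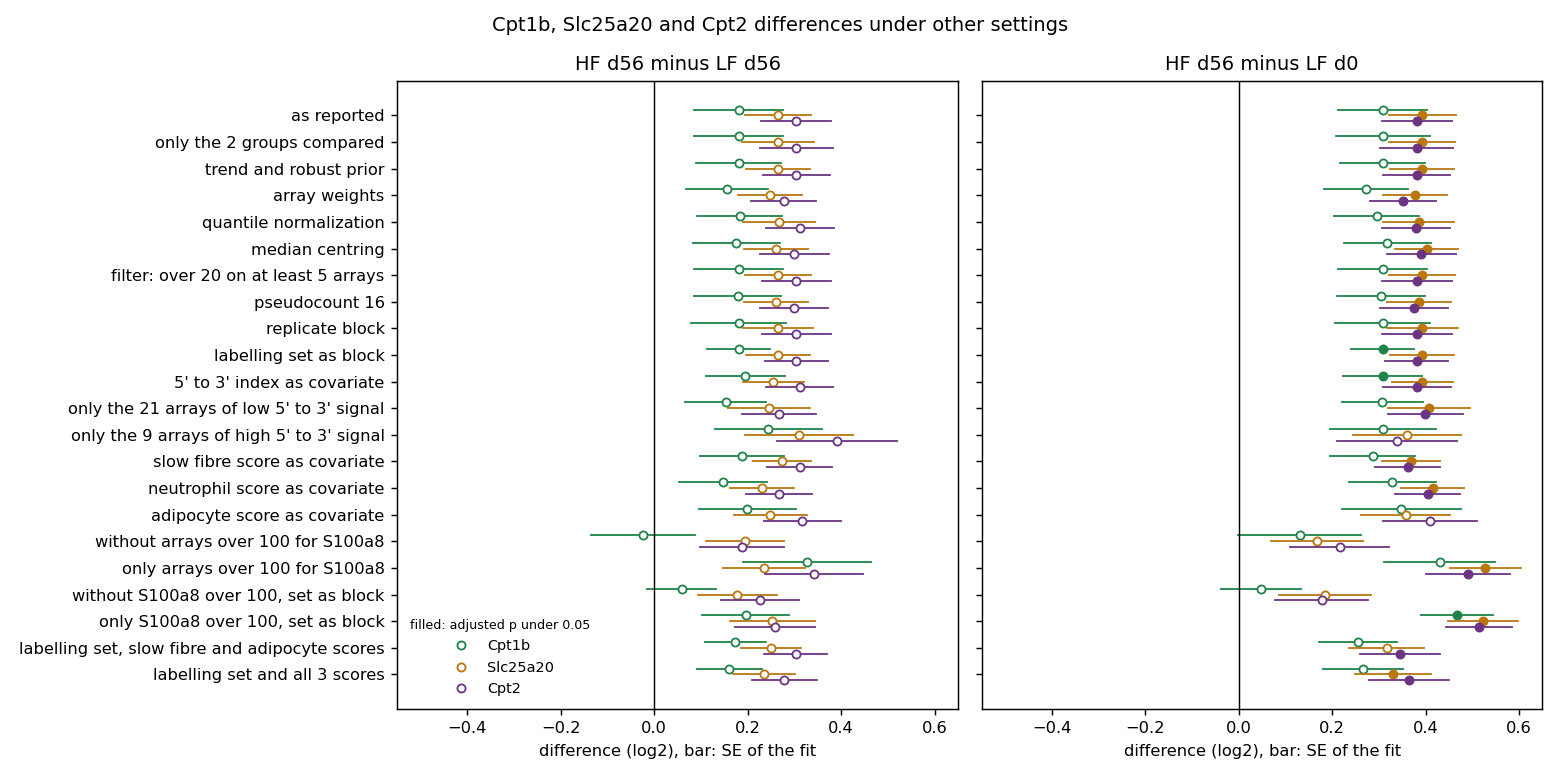
Differences of Cpt1b, Slc25a20 and Cpt2 in HF d56 minus LF d56 (left) and HF d56 minus LF d0 (right) on the log2 scale under each setting, with bars for the SE of the fit and filled points for an adjusted p under 0.05. Slc25a20 in HF d56 minus LF d0 is 0.17 without the arrays over 100 for S100a8 and 0.53 with those alone, and Cpt2 in HF d56 minus LF d56 is 0.39 in the 9 arrays of high ratio against 0.30 as reported.

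Cpt1b, Slc25a20 and Cpt2 also varied together between mice of the same group. After group means were taken out within each array class, 10 pairs of genes and the slow fibre score with each gene were compared in each of the 2 classes, 30 relations in all. The permutations ran over all arrays of a class, across groups. Deviations from a group mean cancel out within the group, which such permutations do not keep. The p-values are therefore approximate and may be too small, most so in the 9 arrays. An exact permutation p means only that every order was used. In the 21 arrays Cpt1b and Slc25a20 had a Pearson r of 0.899 (permutation p = 1e-05, the smallest the permutations can give, adjusted p = 0.00015) and a Spearman rho of 0.861 (permutation p = 1e-05, adjusted p = 0.0003). Without the 2 arrays farthest from the Cpt1b median, r was 0.875.

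For Cpt1b and Cpt2 in the 21 arrays r was 0.826 (permutation p = 1e-05, adjusted p = 0.00015), rho was 0.745 (permutation p = 0.00018, adjusted p = 0.0025), and r without 2 arrays was 0.722. For Cpt2 and Slc25a20 r was 0.774 (permutation p = 4e-05, adjusted p = 0.0004), rho was 0.719 (permutation p = 0.00025, adjusted p = 0.0025), and r without 2 arrays was 0.666. In the 9 arrays of the other class, the pair Cpt2 and Slc25a20 had r = 0.948 (exact permutation p = 0.000391, adjusted p = 0.00293), rho = 0.867 (exact permutation p = 0.00451, adjusted p = 0.0271), and r = 0.808 without 2 arrays.

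The 2 pairs with Cpt1b did not pass in the 9 arrays. Cpt1b and Slc25a20 had r = 0.619 there (exact permutation p = 0.0761, adjusted p = 0.152), rho = 0.5 (exact permutation p = 0.178, adjusted p = 0.314) and r = -0.014 without 2 arrays. Cpt1b and Cpt2 had r = 0.711 (exact permutation p = 0.0308, adjusted p = 0.0841), rho = 0.767 (exact permutation p = 0.0214, adjusted p = 0.0769) and r = 0.313 without 2 arrays.

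For Crat, in the 21 arrays the pair with Cpt1b had r = 0.622 (permutation p = 0.00269, adjusted p = 0.0134), but rho was 0.532 (permutation p = 0.0142, adjusted p = 0.0712) and r without 2 arrays was 0.406. In the 9 arrays the same pair had r = 0.473 (exact permutation p = 0.199, adjusted p = 0.331), rho = 0.45 (exact permutation p = 0.23, adjusted p = 0.345) and r = 0.726 without 2 arrays. Differences between correlations were not tested. No other pair with Crat or with Slc22a5 passed after adjustment by r or rho in either class.

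The slow fibre score, whose relations were added after the data had been seen, went with Slc25a20 in the 21 arrays at r = 0.676 (permutation p = 0.00062, adjusted p = 0.00372) and rho = 0.686 (permutation p = 0.00068, adjusted p = 0.0051), with r = 0.52 without 2 arrays. In the 9 arrays the same relation had r = 0.286 (exact permutation p = 0.454, adjusted p = 0.621) and rho = 0.167 (exact permutation p = 0.678, adjusted p = 0.782). None of the other 8 relations with the score passed by r or rho after adjustment.

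**Figure D4:**
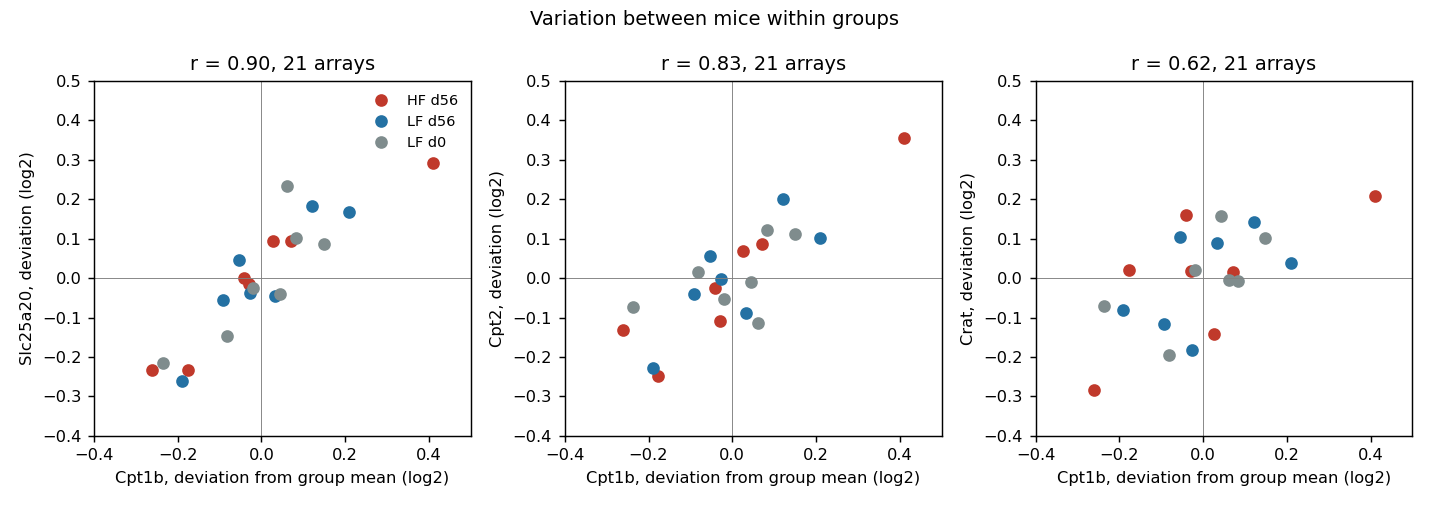
Deviations from the group means of Slc25a20 (left), Cpt2 (middle) and Crat (right) against those of Cpt1b, all on the log2 scale, 1 point for each of the 21 arrays of low 5′ to 3′ ratio, coloured by group. The points lie closest to a line for Slc25a20 (r = 0.899), then Cpt2 (r = 0.826) and Crat (r = 0.622), and 1 HF d56 array lies far to the upper right in all 3 panels.

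Likeness to each gene was measured by Pearson r over the 30 arrays, after group and class means were taken out, among the 6595 genes with a symbol that exceeded 20 on at least 5 arrays, and it is given as a description because all points share arrays and normalization. Closest to Cpt1b were Ech1, an enzyme that isomerises enoyl-CoA, at 0.89, Slc25a20 at 0.85 and Coq9, needed for coenzyme Q synthesis, at 0.82. Closest to Slc25a20 were Ech1 at 0.87, Ephx2, the soluble epoxide hydrolase, at 0.86 and Cpt1b at 0.85. Closest to Cpt2 were Tmem65, a mitochondrial membrane protein, at 0.90, Coq10a, a coenzyme Q binding protein, at 0.85 and Hadh, a short-chain hydroxyacyl-CoA dehydrogenase, at 0.85. Closest to Crat were Rab1b, a small GTPase of vesicle transport, at 0.86, Sorbs3, an adaptor of cell adhesions, at 0.86 and Pfn1, which binds actin, at 0.83. Closest to Slc22a5, whose values are near background, were Rcc1l at 0.69, Furin at 0.63 and Lrrc20 at 0.61.

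The genes of the route around the 5 gave a mixed picture. Of the 3 other carnitine acyltransferases, all measured, Cpt1a, the liver form of the outer membrane enzyme, fell in HF day 56 against LF day 0 muscle. Its intensity was 15.5 at the lowest, 17.1 at the median and 19.7 at the highest on HF day 56 arrays, 16.8, 19.0 and 21.9 on LF day 56 arrays and 17.7, 20.6 and 25.0 on LF day 0 arrays. HF day 56 minus LF day 0 was -0.27 ± 0.06 (limma adjusted p = 0.00885), against 0.807% of all entries that passed as lower, but only 9 of 30 values exceeded 20, so the size is uncertain. HF day 56 minus LF day 56 was -0.14 for Cpt1a (adjusted p = 0.902), and LF day 56 minus LF day 0 was -0.13 (adjusted p = 0.445).

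Crot, the peroxisomal carnitine octanoyltransferase, differed by -0.06 between HF day 56 and LF day 56, by -0.07 between LF day 56 and LF day 0 and by -0.13 between HF day 56 and LF day 0 (limma adjusted p = 0.199 in the last), and Cpt1c stayed below 20 on every array.

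Carnitine supply was largely out of reach of these arrays. Of 5 genes listed for synthesis and uptake, 4 were measured, without Tmlhe, and Aldh9a1, a dehydrogenase of carnitine synthesis, exceeded 20. The Aldh9a1 level differed by -0.32 between HF day 56 and LF day 0 muscle (limma adjusted p = 0.192), by -0.28 between LF day 56 and LF day 0 (adjusted p = 0.335) and by -0.03 between the diets. Slc22a4 and Slc22a21, relatives of Slc22a5, and Bbox1, the last enzyme of carnitine synthesis, were at or below 20 on all 30 arrays. No gene of the list passed in any comparison.

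Of the 5 long-chain acyl-CoA synthetases listed, which make the acyl-CoA that the shuttle takes up, 4 were measured and 0 passed in any comparison. Acsl1 was not measured, so this step is described only in part. Acsl6 differed by -0.09 between the diets at day 56, by 0.23 between LF day 56 and LF day 0 (limma adjusted p = 0.167) and by 0.14 between HF day 56 and LF day 0. The corresponding values for Acsl5 were 0.09, -0.18 and -0.09, and Acsl4 differed by -0.16 between HF day 56 and LF day 0. Of 3 genes listed for malonyl-CoA control, Mlycd, the decarboxylase that removes malonyl-CoA, was measured, and Acaca and Acacb were not. Mlycd differed by 0.17 ± 0.07 between the diets (limma adjusted p = 0.941) and by 0.25 ± 0.07 between HF day 56 and LF day 0 muscle (adjusted p = 0.0913).

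The matrix enzymes that take over the acyl group were all measured, 8 of 8, and all 8 were higher in each comparison. Of all entries, 51.5% were higher between the diets. In LF day 56 and in HF day 56 against LF day 0 muscle the shares were 50.4% and 51.0%. Between the diets 0 of 8 passed, with a median difference of 0.18, and Acadl, the long-chain acyl-CoA dehydrogenase, and Hadha, a subunit of the trifunctional protein, both differed by 0.26 (limma adjusted p = 0.123 and 0.42). In LF day 56 against LF day 0 muscle Acadm, the medium-chain dehydrogenase, rose by 0.23 (adjusted p = 0.0142), 1 of 8 against 0.225% of all entries that passed as higher. Acadvl, the very long-chain dehydrogenase, was second in that comparison without passing.

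In HF day 56 against LF day 0 muscle 6 of 8 matrix enzymes rose, against 0.783% of all entries that passed as higher: Acadm by 0.37 (limma adjusted p = 3.1e-05), Acadl by 0.38 (adjusted p = 0.000275), Hadha by 0.37 (adjusted p = 0.00371), Acadvl by 0.30 (adjusted p = 0.0104), Hadhb by 0.23 (adjusted p = 0.0164) and Acaa2 by 0.38 (adjusted p = 0.0185). The median of the 8 was 0.37, against 0.31 for the 5 shuttle genes and 0.00 for all entries. Acads (0.41, adjusted p = 0.505) and Hadh (0.16, adjusted p = 0.175) did not pass.

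**Figure D5:**
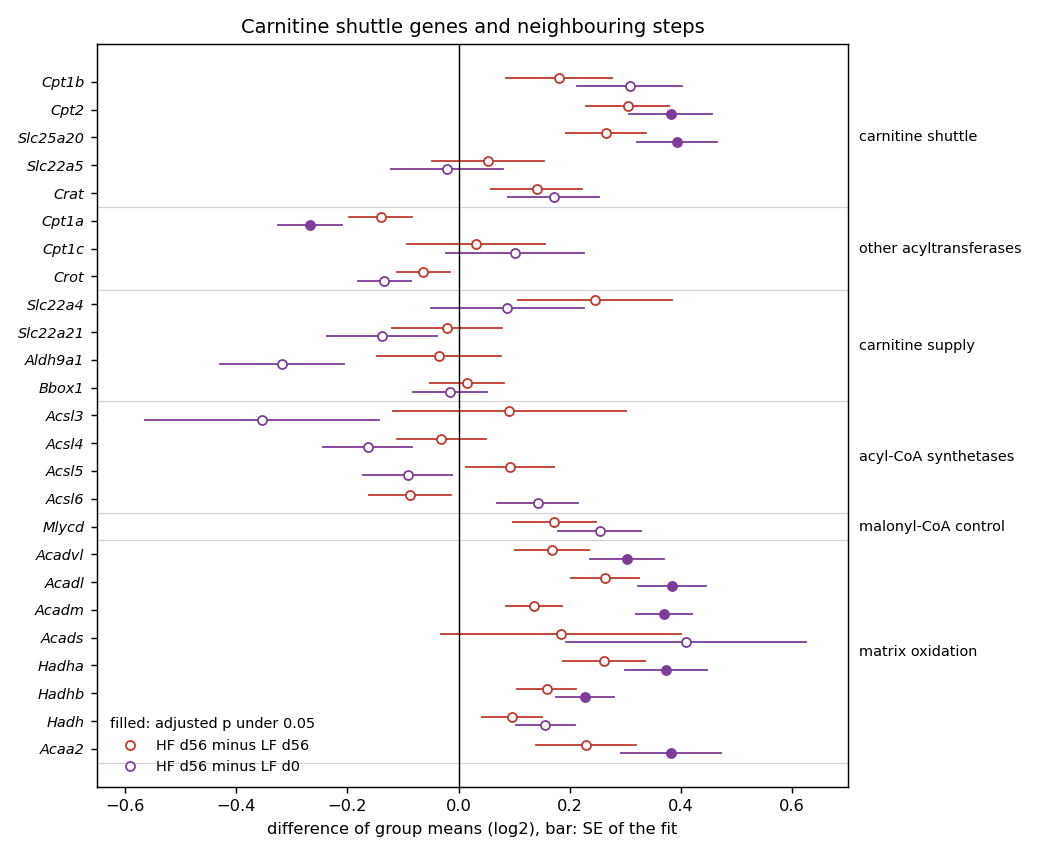
Differences on the log2 scale in HF d56 minus LF d56 and HF d56 minus LF d0 for the 5 shuttle genes and the 20 measured genes around them, by role, with bars for the SE of the fit and filled points for an adjusted p under 0.05. In HF d56 minus LF d0 the filled points are Slc25a20, Cpt2 and 6 matrix enzymes above 0, and Cpt1a (-0.27) below it.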

How the data were processed

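RNA of 30 quadriceps muscles was measured on single-colour Affymetrix arrays with biotin labelling. The deposited table gives, for every gene on every array, a linear intensity that the authors obtained with GCRMA, per the submitters' processing notes. The version, the probe annotation and the genome build are not given in the sources used here. Values ran from 1.2 to 30599, with array medians from 8.9 to 9.4, and 0 pairs of arrays were identical. The table has 16539 entries. The 64 controls among them were not used, and 6844 of the remaining 16475 had 5 or more arrays above 20. Depth does not apply to arrays, and the number of mice limits the precision.

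Groups were taken from the labels. The log2 of each intensity was computed with a pseudocount of 0 and entered into limma (version 3.58.1, under R 4.3.3), using lmFit and eBayes (no trend, not robust, group as the factor, 27 residual and 3.97 prior degrees of freedom), and the procedure was tested on simulated data. Nothing in the labels says that mice were caged or processed together. The p-values of the main fit set a group difference against the spread between mice within groups, which also holds the array class. Every gene of the 5 was named in each comparison, and of each list the genes past the threshold and the 2 of smallest p. Relations were tested on deviations from group means, with 100000 resamples or, for 9 arrays, all 362880 orders. The orders ran across groups, so the p-values of the relations are approximate. The genes and the lists were chosen with earlier results of these data known. Alternatives covered the array class, marker scores, normalization, filter, pseudocount, threshold, weights, samples in the fit, a replicate block and each array left out. The 5 alternatives that combined class and scores, kept only arrays with S100a8 over 100 or set class as a block on either side of that limit were chosen after seeing the data. Each group numbers its replicates from 1 to 10, while every mouse has a number of its own in the labels.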

Additional observations from a re-analysis of the deposited data

How the results depend on the processing

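In HF day 56 minus LF day 56, 4 of all entries passed as reported. The count was 15 at a threshold of 0.1, 8 with trend and robust prior, 8 with the filter, 7 with pseudocount 16, 8 with the 5′ to 3′ ratio as covariate, 12 with the slow fibre score and 9 with class, slow fibre and adipocyte terms. It was 0 with only the 2 groups, in the 21 arrays, in the 9 arrays and on either side of the S100a8 limit, where 799, 835, 782, 728 (at or below 100) and 855 (above 100) entries had an unadjusted limma p under 0.05, and also 0 on either side with class as a block (713 and 722). LF day 56 minus LF day 0 (140 as reported) gave 214 with class as a block, 47 in the 21 arrays, 11 in the 9 arrays, 85 with the neutrophil score, 13 and 24 below and above the S100a8 limit (7 and 23 with class as a block) and 241 with class, slow fibre and adipocyte terms. HF day 56 minus LF day 0 (262 as reported) gave 134, 0 (1323 unadjusted), 6 and 112 in the same 4 subsets (7 below the limit with class as a block), 64 with the adipocyte score, 117 with class, slow fibre and adipocyte terms and 129 with the neutrophil score as well. Leaving out each array in turn gave 2 to 15, 102 to 155 and 214 to 271 in the 3 comparisons.

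Of the 5 genes, 2 passed in HF day 56 minus LF day 0 as reported. The count was 0 in the 9 arrays, with the adipocyte score and without the arrays over 100 for S100a8, and 1 with class, slow fibre and adipocyte terms, where Slc25a20 had 0.317 (adjusted p = 0.0565). It was 3 with class as a block (Cpt1b 0.308) and with the ratio as covariate (Cpt1b 0.308). In the 9 arrays Cpt2 was 0.338, and without arrays over 100 for S100a8 Cpt2 was 0.216 and Slc25a20 0.167, or 0.177 and 0.184 with class as a block, where the count was also 0. Above the limit with class as a block Cpt1b passed at 0.467, while at or below it Cpt1b was 0.047 (limma adjusted p = 0.928). With each array left out, Cpt2 stayed between 0.35 and 0.41 and Slc25a20 between 0.36 and 0.42, past the test each time, and Cpt1b between 0.262 and 0.349, past it only without HF day 56 replicate 3. The directions that turned were small: Slc22a5 in HF day 56 minus LF day 0 was 0.059 in the 21 arrays and 0.027 without arrays over 100 for S100a8, and -0.056 to 0.0303 with an array left out. Slc22a5 in HF day 56 minus LF day 56 was -0.066 in the 9 arrays, and Cpt1b was -0.025 without arrays over 100 for S100a8, but 0.059 there with class as a block, and 1 of 4 HF and 3 of 6 LF arrays there were of high ratio. In LF day 56 minus LF day 0, Cpt2 was -0.052 in the 9 arrays, Slc25a20 -0.028 without arrays over 100 for S100a8, Crat -0.044 with those alone, and without arrays over 100 with class as a block Cpt1b was -0.012, Cpt2 -0.049 and Crat -0.079. Slc22a5 in HF day 56 minus LF day 0 was 0.0051 there. Crat was -0.001 to 0.062 in LF day 56 minus LF day 0 with an array left out. The subsets hold fewer arrays, and the cause of the other changes was not tested.

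Same-numbered arrays had residual correlations of -0.535 to 0.57, 8 of 30 over 0.1, so no consistent pairing by number was seen, and the labels state none. With the replicate block 1 entry passed in HF day 56 minus LF day 56, and HF day 56 minus LF day 0 kept its 2 genes (Cpt2 adjusted p = 0.00858, Slc25a20 adjusted p = 0.00813). Signal near background limits Slc22a5 and Cpt1a.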
